A study of Mus musculus with 4 samples.

Results

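The genes Trpv6, S100g, Atp2b1 and Vdr of intestinal calcium absorption were followed in all 4 libraries of the series, Vdr being the gene of the vitamin D receptor. They were chosen by their mm9 symbols and make up 4 of the 20893 condensed genes, that is, sets of exons joined under 1 gene name, on which reads were counted. The libraries were made from frozen total tissue of small intestine and of colon of C57BL/6 mice without a listed treatment, aged 9 to 10 weeks, with 1 library per tissue and protocol. In the cDNA fragmented protocol, polyadenylated RNA was turned into full-length cDNA by the SMART reaction, amplified by PCR and then sheared, and the strand was lost. In the other protocol the RNA itself was fragmented and adaptors were ligated in a fixed direction, and the labels give the input as ribosomal RNA-depleted RNA, whereas the methods of the study describe polyadenylated RNA for its RNA fragmentation. The cDNA fragmented libraries have the read numbers that the study lists. The ribosomal RNA-depleted ones, with 36419942 and 37466674 reads of 35 colors, do not, since the study lists more and longer reads for RNA fragmentation. Whether its methods cover these libraries is therefore not known here. By the methods, small intestine stands for jejunum and colon for distal colon. The study speaks of both tissues as taken from the same mice, but which of its mice gave each library is not given in the sources used here. Since each condition is a single library, no replicate error exists within a protocol, no test between tissues was run there, and all intervals (at the 95% level) cover counting error only.

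In the gut, dietary calcium is taken up through enterocytes when supply is low. It enters across the apical membrane through the channel TRPV6, is carried through the cytosol by the small EF-hand protein calbindin-D9k (gene S100g), and is pumped out at the basolateral side by the plasma membrane calcium ATPase PMCA1 (gene Atp2b1). The vitamin D receptor, a nuclear receptor that binds DNA together with a retinoid X receptor, switches on Trpv6 and S100g when bound by calcitriol, and the pathway is best known from the duodenum, with a part in cecum and colon.

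The libraries held between 36419942 and 83302412 reads, of which between 2035386 and 24798934 had a unique placement, and the ribosomal RNA-depleted libraries were the shallow ones. Levels are given as RPKM, the reads of a gene divided by its exonic length in kilobases and by the uniquely placed reads of the library in units of 1000000. The tissue labels were set against lists of marker genes which, like the members, were chosen with earlier results of these data known. All 4 small intestine enterocyte markers (Lct, Sis, Fabp2 and Apoa4) were over 3-fold higher in small intestine in both protocols, and Aqp8 and Slc26a3 were over 3-fold higher in colon in both. Of the markers of the ileum, Fabp6 reached 1185 and 311 RPKM in the small intestine libraries, whereas Slc10a2 was 2.19-fold higher in colon by cDNA fragmentation and 2.07-fold otherwise. The 4 markers of the duodenum and proximal small intestine (Gata4, Onecut2, Cybrd1 and Pdx1) summed to 11.3 RPKM in small intestine by cDNA fragmentation and 57.0 RPKM there with ribosomal RNA depletion, and each was higher in the latter library. Of these Pdx1, which is also a gene of the pancreas, had 1 and 15 reads. Smooth muscle markers, summed over 6 genes, were at 304 RPKM in small intestine and 1269 RPKM in colon by cDNA fragmentation and at 238 and 2412 RPKM in the other protocol. Epithelial markers, summed over 9 genes, ranged from 5403 to 15284 RPKM over the libraries. Blood and immune markers (4 genes) were at 1829 and 1580 RPKM in small intestine and at 156 and 310 RPKM in colon. Of these sums Cd74 alone gave 1781 and 1556 RPKM in small intestine and 140 and 292 RPKM in colon. Ptprc and Cd3e were also lower in colon in both protocols. Cd79a was lower there only by cDNA fragmentation, and was at 10.0 and 10.4 RPKM with ribosomal RNA depletion. Adipose markers (3 genes) were at 14.7 to 19.2 RPKM in small intestine and 129 to 153 RPKM in colon, where Plin1 had at most 8 reads. Kidney tubule markers (3 genes) were at no more than 0.111 RPKM. A list of 7 pancreatic acinar genes did not follow the tissues. Its summed level was 19.1 RPKM in small intestine and 810 RPKM in colon by cDNA fragmentation, of which Cela1 alone gave 18.3 and 544 RPKM. In the ribosomal RNA-depleted libraries the sum was 2609 RPKM in small intestine and 297 RPKM in colon, of which Cela1 alone gave 291 RPKM in the last. The defining acinar genes Cpa1, Pnlip and Prss2 had 0 reads in the cDNA fragmented small intestine library and 921, 2229 and 867 reads in the colon one. In bulk tissue, fewer cells of a type cannot be told apart from less RNA per cell.

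The promoter windows of Trpv6 and S100g hold single half-sites of the vitamin D receptor, but neither direct repeat searched for below. They are shown because of these half-sites, and binding was not measured. The coding bases of S100g, the member whose ratios differed most between the protocols among those present in all 4 libraries, are shown as well. Promoters are from RefSeq (GRCm38.p6), run from 250 bases before the annotated first base to the end of the first 50 bases, and are given 5′ to 3′ on the strand of the gene. Capitals mark the half-sites AGGTCA and GGTTCA on either strand and the TATA box TATAAA. The Trpv6 window is at chr6:41636356-41636655 and the S100g window at chrX:162964550-162964849, both on the minus strand.
Trpv6 promoter: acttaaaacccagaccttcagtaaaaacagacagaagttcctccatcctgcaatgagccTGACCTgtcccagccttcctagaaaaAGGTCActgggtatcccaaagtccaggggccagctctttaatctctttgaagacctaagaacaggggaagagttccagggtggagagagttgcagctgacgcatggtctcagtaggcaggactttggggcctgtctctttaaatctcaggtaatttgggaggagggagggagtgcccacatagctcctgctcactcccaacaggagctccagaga
S100g promoter: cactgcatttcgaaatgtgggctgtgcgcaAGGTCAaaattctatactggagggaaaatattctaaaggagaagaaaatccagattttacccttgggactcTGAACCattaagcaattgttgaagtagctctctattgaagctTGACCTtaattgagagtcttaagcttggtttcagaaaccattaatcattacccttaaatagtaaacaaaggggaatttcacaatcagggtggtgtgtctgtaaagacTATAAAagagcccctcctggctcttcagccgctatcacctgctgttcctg
The S100g coding bases lie in exon blocks 2 and 3, counted from the 5′ end, at chrX:159401994-159402128 and chrX:159400071-159400172 of mm9 (minus strand). Capitals mark the start codon.
S100g block 2: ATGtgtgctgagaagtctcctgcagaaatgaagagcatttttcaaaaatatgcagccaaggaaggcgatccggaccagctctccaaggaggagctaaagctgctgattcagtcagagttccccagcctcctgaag
S100g block 3: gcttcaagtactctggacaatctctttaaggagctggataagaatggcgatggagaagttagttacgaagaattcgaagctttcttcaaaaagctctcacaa
In Trpv6 the half-site AGGTCA was found at -191 to -186 on the opposite strand and at -165 to -160 on the strand of the gene. In S100g it was found at -220 to -215 and, on the opposite strand, at -107 to -102, and GGTTCA lay at -149 to -144 on the opposite strand. AGGTCA occurred on at least 1 strand of 16.3% of 32851 promoter windows of the same length, and GGTTCA in 10.4%. Neither direct repeat of these half-sites with 3 bases between them (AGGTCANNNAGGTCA or GGTTCANNNGGTTCA) was present in a window of any of the 4 genes. The windows of Atp2b1, of which there are 2, and of Vdr held neither AGGTCA nor GGTTCA on either strand. Other letters of the half-site were not searched for. The GC content was 79.3% in both windows of Atp2b1 and 61.3% in Vdr, against 51.3% in Trpv6 and 41.0% in S100g. In S100g the TATA box occupied bases 1 to 6 of the annotated transcript itself. The letters TATAAA were present on either strand in 13.6% of windows.

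Per kilobase, the order of the 4 genes was the same in 3 of the libraries. Vdr was highest, followed by Atp2b1, S100g and Trpv6, in both small intestine libraries and in the ribosomal RNA-depleted colon library. In the cDNA fragmented colon library S100g stood first. The channel was the rarest of the 4 in every library.

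**Figure D1:**
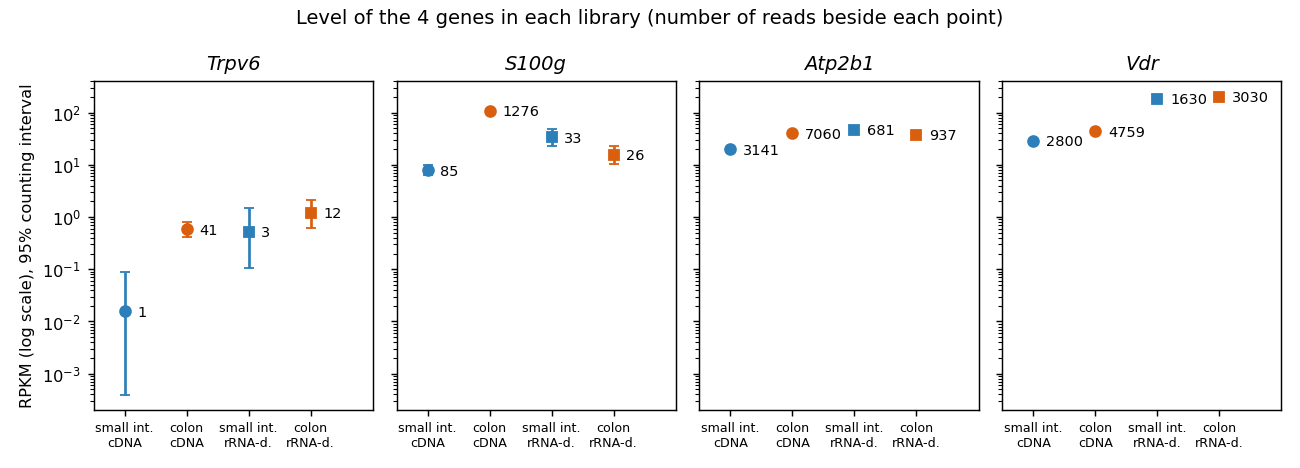
RPKM of each gene in each library on a log axis, with exact Poisson intervals and the number of reads beside each point (circles, cDNA fragmented; squares, ribosomal RNA-depleted; blue, small intestine; orange, colon). S100g reached 107 RPKM in the cDNA fragmented colon library and at most 33.8 RPKM in the other libraries.

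Trpv6 encodes the apical calcium entry channel (chr6:41570624-41586334 of mm9, minus strand, 15 exon blocks, 2852 bases). It had 1 read in the cDNA fragmented small intestine library and 41 reads in the colon one. In the ribosomal RNA-depleted libraries 3 reads were found in small intestine and 12 in colon. Colon was therefore the higher tissue in both protocols, although the channel was scarce everywhere. Its level was 0.0156 RPKM (0.000395 to 0.0869) in small intestine and 0.580 RPKM (0.416 to 0.786) in colon by cDNA fragmentation, and 0.517 RPKM (0.107 to 1.51) and 1.21 RPKM (0.625 to 2.11) in the ribosomal RNA-depleted libraries. The ratio of colon to small intestine was 37.2 by cDNA fragmentation, with a counting interval of 6.31 to 1504 that reflects the single read, and 2.34 (0.632 to 12.9) by the other protocol, where the interval includes 1. The small intestine value by cDNA fragmentation rests on 1 start point and so misses the presence rule of the study (over 0.01 RPKM and at least 2 start points). In the colon libraries Trpv6 lay above 23.5% and 17.0% of the genes present. The 41 colon reads had 39 start points, of which the first lay at base 424 of the transcript, and 18 of them fell in the last of the 15 blocks. No read of Trpv6 was placed on an exon-exon junction in any library.

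S100g encodes the cytosolic carrier calbindin-D9k (chrX:159399924-159402531, minus strand, 3 exon blocks, 480 bases). It had 85 reads in the small intestine and 1276 reads in the colon by cDNA fragmentation, and 33 and 26 reads in the ribosomal RNA-depleted libraries. The tissue with the higher level was colon in the former protocol and small intestine in the latter. In RPKM the levels were 7.88 (6.29 to 9.74) and 107 (101 to 113) by cDNA fragmentation, and 33.8 (23.3 to 47.4) and 15.6 (10.2 to 22.8) in the other libraries. The ratio of colon to small intestine was 13.6 (10.9 to 17.2) by cDNA fragmentation and 0.461 (0.265 to 0.795) in the ribosomal RNA-depleted libraries. Both intervals exclude 1, on opposite sides, and with 1 library each the difference between protocols could not be tested. Of the 12909 genes present in all 4 libraries, 10.4% had intervals on opposite sides of 1, and 5.14% had colon higher by cDNA fragmentation and lower otherwise, as S100g did. These shares were not matched for the number of reads, on which the width of an interval depends. When at most 1 color mismatch was allowed, the ribosomal RNA-depleted libraries kept 17 reads of S100g in small intestine and 20 in colon, and the interval of their ratio of 0.659 (0.328 to 1.34) included 1.

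**Figure D2:**
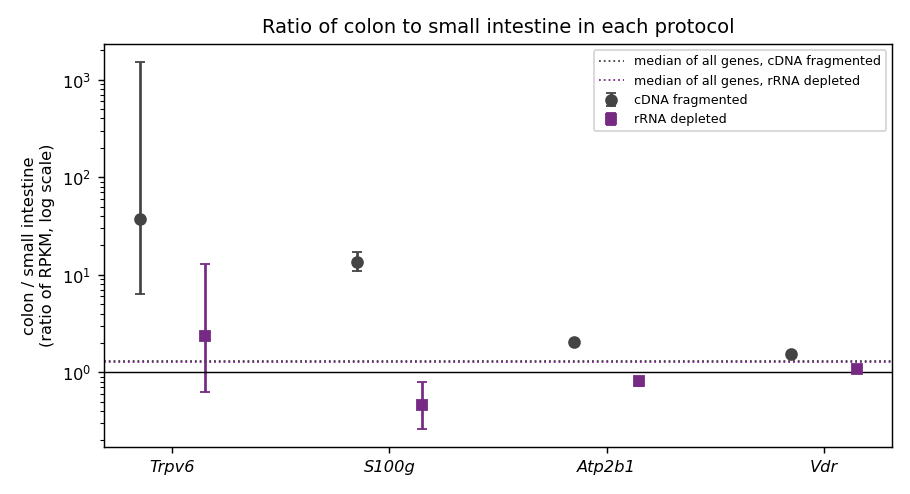
Ratio of colon to small intestine in RPKM on a log axis for each gene in each protocol, with exact counting intervals; dotted lines mark the median ratio of all genes present in both tissues (1.31 and 1.27). S100g lies at 13.6 and 0.461, on opposite sides of 1.

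The ratios of S100g lay on opposite sides of 1 in coding bases as well as in the other exonic bases. In coding bases the ratio of colon to small intestine was 14.3 (10.7 to 19.6) by cDNA fragmentation, from 759 and 48 reads, and 0.331 (0.154 to 0.681) in the ribosomal RNA-depleted libraries, from 13 and 23 reads. Outside coding bases it was 12.7 (9.07 to 18.2) and 0.761 (0.308 to 1.94), and the latter interval includes 1. Of the blocks in 5′ to 3′ order, the cDNA fragmented colon library had 20, 377 and 879 reads, and the small intestine one had 0, 16 and 69. The ribosomal RNA-depleted libraries had no read in block 1, 10 and 3 reads in block 2, and 23 reads in block 3 in each tissue. In start points, which were counted for each strand separately and whose number is bounded by the length of the gene, the counts were 73 and 448 by cDNA fragmentation and 21 and 16 otherwise, and the ratio by cDNA fragmentation fell to 5.86 (4.57 to 7.62). In the ribosomal RNA-depleted libraries all S100g reads lay on the strand of the gene, and the start point with most reads was the same in both tissues (base 347, with 7 of 33 and 5 of 26 reads). The acinar list moved with S100g, in that both were higher in colon by cDNA fragmentation and in small intestine with ribosomal RNA depletion than in the other library of the same protocol. With 1 library per tissue and protocol, RNA of another tissue in a library cannot be told apart from a difference between small intestine and colon. The part of the acinar genes in the result was not tested, and neither was that of the proximal markers. All 4 of these, like S100g, were higher in small intestine with ribosomal RNA depletion than by cDNA fragmentation. This rise was not particular to them. Atp2b1 rose 2.40-fold and Vdr 6.43-fold there, and Trpv6 rose 33.1-fold, from 1 to 3 reads. Of the ileal markers, Slc10a2 rose from 13.3 to 49.2 RPKM and Fabp6 fell from 1185 to 311 RPKM.

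The first base of S100g covered by any read was base 28, in the cDNA fragmented colon library, and that library had 48 reads that cover part of the first 100 bases. The small intestine library of the same protocol was covered from base 88, and the ribosomal RNA-depleted ones from bases 122 and 179. Thus the TATA letters printed above, at bases 1 to 6, were covered by no read in any library. The earliest base covered in any library was 58 for Trpv6, 15 for Vdr and 3 for Atp2b1. The study describes depletion of both ends of shorter transcripts with its cDNA protocol. The reads therefore do not show where S100g transcripts start.

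Atp2b1 encodes the basolateral calcium pump PMCA1 (chr10:98377786-98488775, plus strand, 21 exon blocks, 7128 bases). It had 3141 reads in small intestine and 7060 in colon by cDNA fragmentation, and 681 and 937 reads in the ribosomal RNA-depleted libraries. The corresponding levels were 19.6 (18.9 to 20.3), 39.9 (39.0 to 40.9), 46.9 (43.5 to 50.6) and 37.8 (35.4 to 40.3) RPKM. The cDNA fragmented small intestine library stood lowest, and the other 3 lay between 37.8 and 46.9 RPKM. The ratio of colon to small intestine was 2.04 (1.95 to 2.13) by cDNA fragmentation and 0.805 (0.729 to 0.890) in the ribosomal RNA-depleted libraries, again on opposite sides of 1. The summed acinar genes had the same directions as Atp2b1 in both protocols, and their part in its ratios was not tested. Atp2b1 made up 98.2% and 98.0% of the summed RPKM of the 4 plasma membrane pump genes by cDNA fragmentation and 89.6% and 78.0% in the other protocol.

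The colon excess of Atp2b1 by cDNA fragmentation was uneven along the transcript. In both cDNA fragmented libraries the reads dropped within the last exon block, from 112 and 318 reads in bases 4401 to 4500 to 9 and 7 reads in bases 4601 to 4700. The ribosomal RNA-depleted libraries dropped over the same windows, from 10 to 0 reads in small intestine and from 31 to 2 in colon, and had 8 and 16 reads again in bases 4701 to 4800, where the cDNA fragmented libraries had 12 and 6. With a border set at base 4600 after the profile had been seen, the ratio of colon to small intestine was 2.37 (2.26 to 2.49) before the border and 1.27 (1.16 to 1.38) past it. Within the colon library the level before the border was 2.39 times that past it, and within the small intestine library 1.28 times. In the ribosomal RNA-depleted libraries the same segments gave ratios of 0.746 (0.664 to 0.838) and 0.996 (0.817 to 1.22), and the level before the border was 1.77 times that past it in small intestine and 1.33 times in colon. In the last 1000 bases alone the ratio was 1.11 (0.986 to 1.24) by cDNA fragmentation and 1.54 (0.946 to 2.57) otherwise, so neither interval excluded 1. The libraries thus differed mostly over the coding blocks and the first part of the last block, where the ratio of coding bases was 2.44 (2.31 to 2.58) by cDNA fragmentation and 0.698 (0.614 to 0.793) otherwise.

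**Figure D3:**
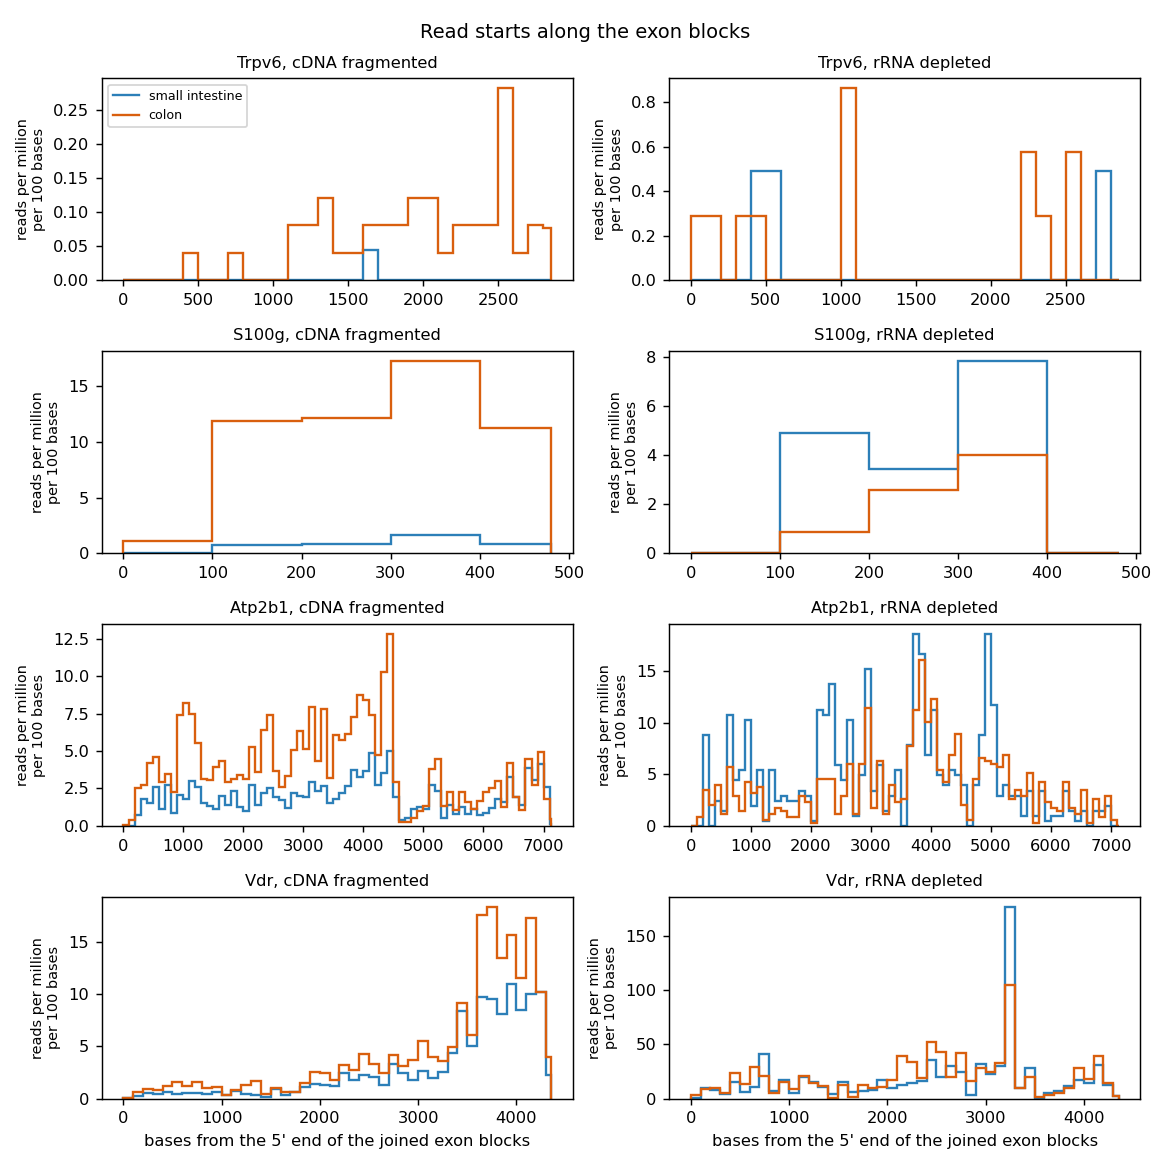
Read starts per 1000000 uniquely placed reads in windows of 100 bases along the joined exon blocks of each gene, 5′ to 3′, by cDNA fragmentation (left) and in the ribosomal RNA-depleted libraries (right), for small intestine (blue) and colon (orange). Atp2b1 drops after base 4500 in both columns and rises again within 200 bases in the right one, and Vdr shows a single tall window at base 3294 on the right, with 328 and 335 reads at 1 start point.

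Vdr encodes the vitamin D receptor (chr15:97684858-97738727, minus strand, 10 exon blocks, 4354 bases). It had 2800 reads in small intestine and 4759 in colon by cDNA fragmentation, and 1630 and 3030 reads in the ribosomal RNA-depleted libraries. The levels were 28.6 (27.6 to 29.7) and 44.1 (42.8 to 45.3) RPKM by cDNA fragmentation and 184 (175 to 193) and 200 (193 to 207) RPKM otherwise. The receptor ranked above 84.9% and 88.6% of the genes present by cDNA fragmentation and above 97.8% and 97.9% in the ribosomal RNA-depleted libraries. Its level in the latter was 6.43 times (6.05 to 6.84) that by cDNA fragmentation in small intestine and 4.54 times (4.34 to 4.75) in colon. These ratios between protocols were not scaled for the composition of the libraries. The ratio of colon to small intestine was 1.54 (1.47 to 1.62) by cDNA fragmentation and 1.09 (1.02 to 1.16) otherwise. Both exceeded 1, but the ratio of the ribosomal RNA-depleted libraries turned to 0.858 (0.808 to 0.912) with median-of-ratios size factors and to 0.993 (0.886 to 1.11) with start points.

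Most reads of Vdr came from its long last block, of whose 3205 bases 257 are coding. This block held 2674 of 2800 and 4484 of 4759 reads by cDNA fragmentation, and 1366 of 1630 and 2499 of 3030 in the other protocol. Reads starting in coding bases were 5.25% (4.48% to 6.14%) and 7.48% (6.77% to 8.26%) of the reads of the gene by cDNA fragmentation and 21.4% (19.5% to 23.5%) and 21.6% (20.2% to 23.1%) otherwise, whereas coding bases are 29.1% of its length. In coding bases alone the level was 5.16 and 11.3 RPKM by cDNA fragmentation, a ratio of 2.20 (1.81 to 2.68), and 135 and 149 RPKM otherwise, a ratio of 1.10 (0.963 to 1.25). A single start point in the untranslated part of the last block, at base 3294 on the strand of the gene (position 97685918), held 328 of the 1630 small intestine reads and 335 of the 3030 colon reads of the ribosomal RNA-depleted libraries. By cDNA fragmentation the same start point had 1 read in small intestine and 0 in colon. Without it the ratio of the ribosomal RNA-depleted libraries was 1.21 (1.13 to 1.29).

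Strand was kept in the ribosomal RNA-depleted libraries only. In the ribosomal RNA-depleted libraries all reads of S100g, Atp2b1 and Vdr, all 3 reads of Trpv6 in small intestine and 11 of 12 in colon lay on the strand of the gene. By cDNA fragmentation the share on the strand of the gene was 48.8% (46.9% to 50.6%) and 47.8% (46.4% to 49.2%) for Vdr, 47.4% (45.7% to 49.2%) and 43.9% (42.8% to 45.1%) for Atp2b1, and 41.2% (31.3% to 51.8%) and 41.1% (38.4% to 43.8%) for S100g, against 48.4% and 48.3% over all genes. The intervals of Atp2b1 and S100g in colon lay below the share of all genes. For Trpv6 it was 14 of 41 reads in colon, or 34.1% (21.6% to 49.5%), and 0 of 1 in small intestine. No exon block of the 4 genes overlaps another coding gene. Placements on exon-exon junctions were few, at most 36 for Atp2b1 and 6 for Vdr in any library, and adding them moved no ratio of a member outside its interval.

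Against the whole table, the rule of a 3-fold difference after a penalty of 1 RPKM in the divisor called 1 of the 3 members present in both tissues by cDNA fragmentation, S100g as higher in colon, where 3.24% of 15177 genes were called higher in colon and 2.82% higher in small intestine. In the ribosomal RNA-depleted libraries it called none of the 4 members, where 6.36% of 13157 genes were called higher in colon and 3.87% higher in small intestine. With median-of-ratios size factors this balance turned, to 2.08% higher in colon and 3.72% in small intestine by cDNA fragmentation and to 3.87% and 5.34% otherwise. The median gene was itself higher in colon, by a ratio of 1.31 by cDNA fragmentation and 1.27 otherwise. Relative to such a scaling (median-of-ratios size factors), Atp2b1 was at 1.54 (1.48 to 1.61) and 0.635 (0.575 to 0.702), Vdr at 1.17 (1.11 to 1.22) and 0.858, and S100g at 10.3 (8.26 to 13.0) by cDNA fragmentation.

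A fit of all 4 libraries with protocol as a block (limma with voom weights and TMM factors, Benjamini-Hochberg over 15512 genes) asks for a tissue effect common to both protocols. It called 7.01% of genes higher in colon and 6.80% higher in small intestine, and 1 of the 4 members. The residual of the fit is the difference of the tissue effect between the protocols. Its p-values therefore rest on no replicate of a tissue within a protocol. For S100g the fitted log2 ratio (colon over small intestine) was 2.15 (SE 0.58, adjusted p = 0.00719), although only the cDNA fragmented protocol shows that direction. The fit leaves 1 residual degree of freedom per gene and takes most of the spread from other genes, and the call of S100g was lost when genes with few reads were kept (adjusted p = 0.148), with limma-trend (adjusted p = 0.35) and without the block (adjusted p = 0.999952). Trpv6, the only member with the same direction in both protocols under each scaling tried, had a log2 ratio of 2.72 (SE 0.999, adjusted p = 0.0605), which misses the threshold of 0.05. It passed only with library sizes in place of TMM factors (adjusted p = 0.0291), and its adjusted p lay between 0.0291 and 0.999952 over the alternatives. Atp2b1 (0.12, SE 0.38, adjusted p = 0.882) and Vdr (0.11, SE 0.36, adjusted p = 0.894) were not called under any of them. The log2 ratios of the fit are scaled by TMM factors, whereas the RPKM ratios are not. With library sizes in place of TMM factors those of Atp2b1 and Vdr were 0.36 and 0.37.

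The other 41 genes of a list for calcium transport and vitamin D signalling were read in the same way. By the 3-fold rule 1 of the 32 present in both tissues was higher in colon and 2 were higher in small intestine by cDNA fragmentation, against 3.24% and 2.82% of all genes, and 5 and 2 of 30 in the ribosomal RNA-depleted libraries, against 6.36% and 3.87%. In the fit with the block 4 of 34 tested were higher in colon and 5 in small intestine, against 7.01% and 6.80% of all genes, and their median log2 ratio was -0.06, against 0.13 over all genes tested.

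**Figure D4:**
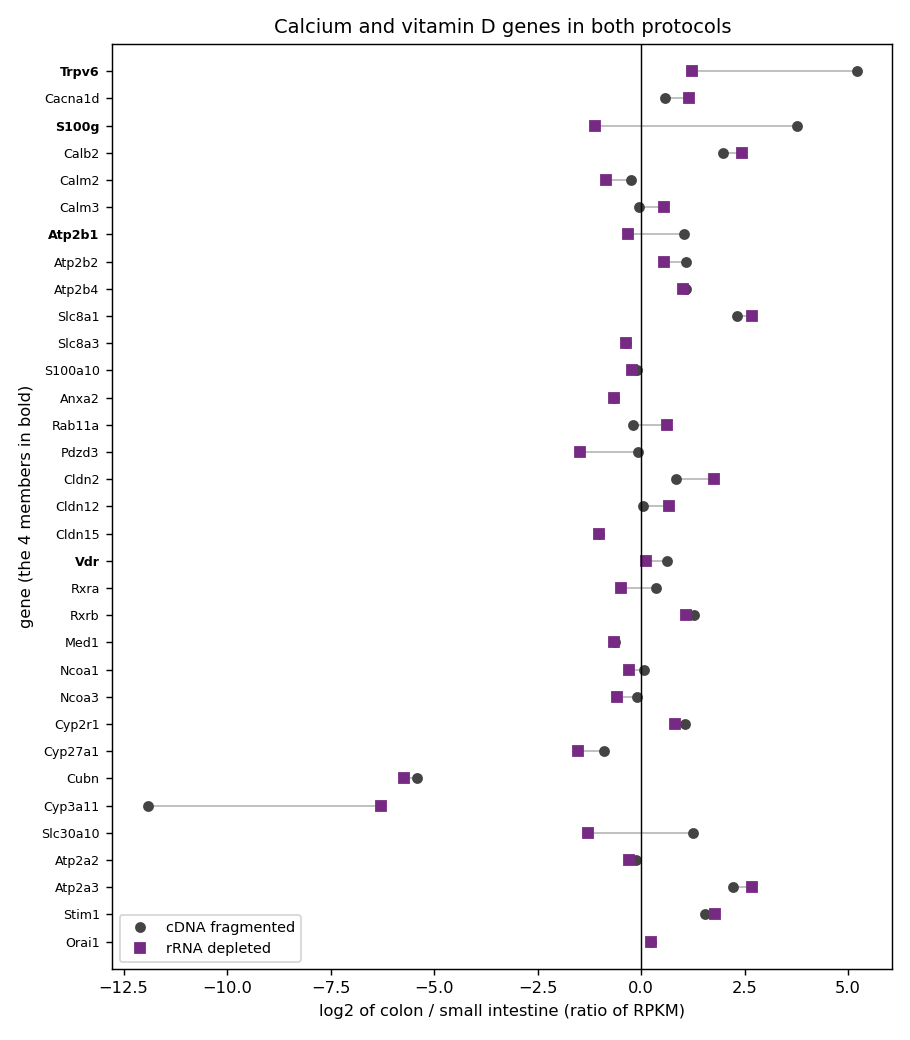
Log2 ratio of colon to small intestine (RPKM) by cDNA fragmentation (circles) and in the ribosomal RNA-depleted libraries (squares) for 33 genes, namely the 4 members (bold) and 29 of the 30 other genes of the list that were present in all 4 libraries. Trpv6 is drawn although it missed the presence rule in the cDNA fragmented small intestine library. S100g spans 3.77 to -1.12, while Atp2a3, Slc8a1 and Cubn lie on the same side of 0 in both.

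Among entry channels, the renal paralog Trpv5 had 0 reads in all 4 libraries, which by a floor of 3 reads allows at most 0.0513 and 0.0465 RPKM in small intestine and colon by cDNA fragmentation, and 0.567 and 0.332 RPKM in the ribosomal RNA-depleted libraries. The voltage-gated channel gene Cacna1d had 20 and 33 reads by cDNA fragmentation and 5 and 19 otherwise. Among cytosolic calcium binders, Calb1, encoding calbindin-D28k, had at most 4 reads in any library, whereas Calb2, encoding calretinin, rose in colon, with 81 and 353 reads by cDNA fragmentation and 4 and 37 otherwise (log2 ratio 1.80, adjusted p = 0.0218 in limma, but 0.0596 when genes with few reads were kept). Calb2 is known from enteric neurons.

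Among the extrusion genes, the sodium-calcium exchanger gene Slc8a1, known from muscle, was 4.98-fold (4.17 to 5.99) and 6.41-fold (4.98 to 8.38) higher in colon (limma adjusted p = 0.000133). The 3 other plasma membrane pump genes were low, at most 9.93 RPKM for Atp2b4, and none was called by limma. Of the genes for intracellular stores, the pump gene Atp2a3 was 4.67-fold (4.38 to 4.97) and 6.38-fold (5.66 to 7.23) higher in colon (adjusted p = 1.48e-05), and the store sensor gene Stim1 was higher by 2.93-fold and 3.42-fold (adjusted p = 0.0130), whereas Atp2a2 and Orai1 were not called. Smooth muscle markers, all 6 of which were called higher in colon, moved with Slc8a1, Atp2a3 and Stim1, and their part in these differences was not tested.

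Of the 4 genes for partners of the entry channel, S100a10, Anxa2, Rab11a and Pdzd3, none was called by limma. S100a10 and Anxa2 were abundant in every library, with 1062 and 995 RPKM and 1578 and 999 RPKM by cDNA fragmentation. Among claudins of the paracellular route, Cldn15 fell in colon to 0.495 (0.483 to 0.507) and 0.491 (0.443 to 0.546) of the small intestine level in RPKM. Its log2 ratio in limma, scaled by TMM factors, was -1.29 (adjusted p = 0.0105). This call was lost with library sizes in place of TMM factors (log2 ratio -1.02, adjusted p = 0.0642). Cldn2, which forms a cation pore, had ratios of 1.80 and 3.39. It passed the 3-fold rule in the ribosomal RNA-depleted libraries but was not called by limma (adjusted p = 0.0705).

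None of the 6 genes for partners of the receptor was called by limma. Rxra, a retinoid X receptor gene, was at 7.79 and 9.97 RPKM by cDNA fragmentation and at 60.7 and 43.4 RPKM otherwise. As for Vdr itself, its levels were several times higher in the ribosomal RNA-depleted libraries. The catabolic enzyme gene Cyp24a1, the classic target of the receptor, had 1 read in the cDNA fragmented colon library and none in the other libraries. The activating enzyme gene Cyp27b1 had 9 reads in that library and none in the others. Of the other genes on the list that are known to respond to the receptor in gut, Cyp3a11 and Fgf15 were higher in small intestine. Cyp3a11, a cytochrome of bile acid and drug oxidation, had 10516 and 3 reads by cDNA fragmentation and 728 and 16 otherwise (log2 ratio -9.42, adjusted p = 1.18e-13). Fgf15, the enterokine that restrains bile acid synthesis, had 351 and 1 reads by cDNA fragmentation and 1 and 0 reads otherwise (limma adjusted p = 2.33e-06). In neither protocol was Fgf15 present in both tissues, and its direction rests on cDNA fragmentation. Its small intestine level was 8.64 RPKM there and 0.272 RPKM with ribosomal RNA depletion. Cubn, encoding cubilin, an endocytic receptor of the ileum and kidney, fell in colon to 0.0237 (0.0189 to 0.0293) and 0.0190 (0.0151 to 0.0236) of the small intestine level (adjusted p = 3.73e-15), and Cyp27a1 to 0.536 and 0.349 (adjusted p = 0.0123, but 0.0517 when genes with few reads were kept). The manganese exporter gene Slc30a10 had a ratio of 2.38 (2.13 to 2.66) by cDNA fragmentation and 0.409 (0.320 to 0.520) otherwise, so its directions were those of S100g and Atp2b1.

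The genes whose profile over the 4 libraries was closest to that of each member were found by the distance between centred log2(RPKM + 1) values, among genes with at least 20 reads. Closest to S100g were Neat1 (distance 0.895), Arhgap27 (1.01) and Akr1c21 (1.03), against a median distance of 2.95 over all genes compared. Neat1 and Arhgap27 had the directions of S100g in both protocols. Arhgap27 had 3.53 and 20.6 RPKM by cDNA fragmentation and 10.7 and 5.88 RPKM otherwise. Neat1, a nuclear non-coding RNA, had 30.1 and 237 RPKM by cDNA fragmentation and 137 and 84.8 RPKM otherwise. Closest to Atp2b1 were Ltbp3 (0.0855), Ano7 (0.104) and 1110002L01Rik (0.104), to Vdr Zfp664 (0.0504), Cebpa (0.0566) and Dbp (0.126), and to Trpv6 Lmbr1 (0.0393), Clpb (0.0437) and Setd6 (0.0497). The added 1 RPKM is above both levels of Trpv6 by cDNA fragmentation, and Lmbr1, at 1.38 and 2.62 RPKM by cDNA fragmentation, did not share the 37.2-fold ratio of Trpv6. Among the members themselves Trpv6 and Atp2b1 were closest (0.651) and S100g and Vdr farthest apart (3.59).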

How the data were processed

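The authors deposited, for each library, positions of single reads on a reference of RefSeq exons and exon-exon junctions of mm9 (35 colors per read, up to 3 mismatches), with a table of exon blocks. These deposited values are positions, into which no normalization enters, and while the methods of the study name Bioscope for matching to the whole genome, the tool behind these exon placements is not given in the sources used here. Uniquely placed reads were counted on 20893 condensed genes (20717 named by GENCODE M1) by the block that holds the first base, with 3 bases of tolerance, and RPKM took the uniquely placed reads of the library, in units of 1000000, as its total. Reads totalled 22484041, 24798934, 2035386 and 3478387 (small intestine and colon by cDNA fragmentation, then by ribosomal RNA depletion), so values of the latter are less precise. Ratios carry exact intervals conditional on the sum of both counts, levels exact Poisson intervals and shares Wilson intervals, all for counting error only. A count of 0 was set against 3 reads per library. The tissue effect was fitted with limma 3.58.1 (voom, R 4.3.3) on the reads counted here, for genes with at least 10 reads. This fit took the place of the count model planned first, which was not run. The fit was tested on simulated data in which each changed gene had the same tissue effect in both protocols. A tissue effect that differs between protocols, as seen for S100g, was not simulated. Groups were taken from the labels. The genes named are the 4 members, the calcium and vitamin D list, the markers and the 3 closest genes of each member; the members and lists were chosen with earlier results of these data known. A gene of the list is counted but not reported by name here. Alternatives were at most 1 mismatch, start points, other scalings, the strand of the gene, the last 1000 bases, added junction reads, a penalty of 0.1, no filter and no block. Coding bases, leaving out the start point with most reads, limma-trend and the share of genes with opposite directions were added after the data had been seen.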

Additional observations from a re-analysis of the deposited data

Results flagged for a closer look

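The members S100g and Atp2b1 stand out because their directions between tissues were opposite in the 2 protocols. The ratio of colon to small intestine of S100g was 13.6 by cDNA fragmentation and 0.461 with ribosomal RNA depletion, and that of Atp2b1 was 2.04 and 0.805. The same was seen in 3 other genes of the calcium and vitamin D list whose counting intervals excluded 1 on opposite sides. Slc30a10 had ratios of 2.38 and 0.409, Rxra of 1.28 and 0.715, and Rab11a of 0.876 and 1.54, in the same order of protocols, although Rxra by cDNA fragmentation turned to 0.968 with median-of-ratios size factors. With those size factors the member Vdr also lay on opposite sides of 1, at 1.17 (1.11 to 1.22) and 0.858 (0.808 to 0.912). Which genes had opposite directions thus depended on the scaling. With the uniquely placed reads as totals, such opposite intervals were found in 10.4% of the 12909 genes present in all 4 libraries, against 2 of the 3 members and 3 of the 30 other genes of the list present there. Intervals are narrower for genes with more reads, and this share was not matched for the number of reads. The 7 pancreatic acinar genes, summed, had the directions of S100g, Atp2b1, Slc30a10 and Rxra, at 19.1 RPKM in small intestine and 810 RPKM in colon by cDNA fragmentation and at 2609 and 297 RPKM otherwise, and their part in these ratios was not tested. With 1 library per tissue and protocol, the difference between protocols was not tested for any of them.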

How the results depend on the processing

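With 1 library per tissue and protocol, intervals cover counting error only. The small intestine values of Trpv6 rest on 1 and 3 reads, so the intervals of its ratios are wide (6.31 to 1504 and 0.632 to 12.9). Each group holds 1 library, so the fit was not run with the replicate number as a block, and its block is the protocol, within which it sets colon against small intestine. The planned Wald test of a count model was not run. Mismatches limited to 1 and junction reads changed no ratio of a member beyond its interval, but with at most 1 mismatch the ribosomal RNA-depleted ratios of S100g, 0.659 (0.328 to 1.34), and Vdr, 1.03 (0.961 to 1.11), had intervals that include 1. The same limit gave Trpv6 a ratio of 19.2 (3.08 to 792) by cDNA fragmentation, from 21 colon reads and 1 small intestine read. With ribosomal RNA depletion it gave 5.60 (0.797 to 243), from 10 and 1 reads. By cDNA fragmentation the ratio of colon to small intestine of S100g was 5.86 with start points, 10.3 with median-of-ratios size factors and 10.7 with TMM factors. That of Atp2b1 was 1.63, 1.54 and 1.60 with the same choices, 1.89 on the strand of the gene, 1.11 in the last 1000 bases and 2.44 in coding bases, and that of Vdr was 1.31, 1.17 and 1.21, then 1.47 in the last 1000 bases and 2.20 in coding bases. With ribosomal RNA depletion Atp2b1 was at 0.635 with median-of-ratios size factors, 0.646 with TMM factors and 0.698 in coding bases, and turned to 1.54 in the last 1000 bases. There Vdr turned to 0.993 with start points, 0.858 with median-of-ratios size factors and 0.873 with TMM factors, and was 1.21 without its start point with most reads. For Trpv6 by cDNA fragmentation, the strand of the gene and the last 1000 bases gave no ratio, since small intestine had 0 reads there. Among other genes Calm3 with ribosomal RNA depletion turned to 0.910 with start points, and Rxra by cDNA fragmentation to 0.968 with median-of-ratios size factors.

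The 3-fold rule called 491 genes higher in colon by cDNA fragmentation, 1167 with a penalty of 0.1 and 315 with median-of-ratios size factors, where 565 were higher in small intestine against 428. With ribosomal RNA depletion it called 837 higher in colon, 1492 with the smaller penalty and 509 with median-of-ratios size factors, and 509 higher in small intestine, 787 with the smaller penalty and 702 with those size factors. The fit with the block (limma) called 1087 genes higher in colon and 1055 higher in small intestine. It called 1695 and 808 with library sizes in place of TMM factors, where the median log2 ratio of all genes moved from 0.13 to 0.38 and the share of calls higher in colon from 50.7% to 67.7%. It called 677 and 747 with no filter, and 0 and 0 without the block, where 838 genes had an unadjusted p under 0.05 and the 9 other genes of the list lost their calls. The log2 ratio of Trpv6 was 2.98 with library sizes (adjusted p = 0.0291). That of S100g was 2.14 with no filter, 1.27 without the block and 1.05 with limma-trend, each short of the threshold. Leaving out 1 library leaves the ratio of the other protocol, with no test. The log2 ratio then ranged from 1.23 to 5.22 for Trpv6, from -1.12 to 3.77 for S100g, from -0.31 to 1.03 for Atp2b1 and from 0.12 to 0.62 for Vdr, the lower value in each case without a cDNA fragmented library. The cause of these shifts was not tested.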
